A study of Rattus norvegicus with 9 samples.

Results

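The genes of the proteasome and of its immune form were followed through rat spleen RNA in 3 groups: TAA with celecoxib, TAA, and control, with 3 libraries in each. Members were the protein-coding genes whose symbol is Psma, Psmb, Psmc, Psmd, Psme, Psmf or Psmg followed by a number, with at least 10 counts summed over the 9 libraries. Of 34408 gene entries, 50 symbols matched and 47 were members. These were 4 immunoproteasome genes (Psmb8, Psmb9, Psmb10 and Psme2), 41 standard proteasome genes, and 2 genes that share the symbol but encode no subunit (Psmc3ip and Psme3ip1). All 47 passed the filter on low counts, which left 15954 genes.

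All 9 libraries came from spleens of wild-type rats, and the labels also name the cell type as splenocytes. In the TAA+celecoxib group, rats received thioacetamide (TAA), which damages the liver and is used to model cirrhosis, by intraperitoneal injection every 3 days, at 200 mg/kg in the first 8 weeks and 100 mg/kg in the last 8. They also received celecoxib, an inhibitor of cyclooxygenase 2, at 20 mg/kg per day over the last 8 weeks. The TAA group received the same TAA course without celecoxib, and the labels of the third group say only that it is the control. The labels give no strain, sex or age, and do not say that each library came from a separate animal, so p-values measure only the spread between these samples. The series title names cirrhotic splenomegaly, the enlargement of the spleen in cirrhosis.

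The proteasome is the protease complex that degrades proteins tagged with ubiquitin. Its core particle, the 20S, is a barrel of alpha and beta rings in which the beta subunits encoded by Psmb5, Psmb6 and Psmb7 cut the chain. The 19S particle caps the barrel, recognises and unfolds substrates, and is built of a base with ATPases and a lid. In lymphoid cells, and in other cells after interferon gamma, Psmb8, Psmb9 and Psmb10 replace Psmb5, Psmb6 and Psmb7 as new cores assemble, and Psme1 with Psme2 forms the PA28 activator. This immunoproteasome yields peptides suited to MHC class I, and the spleen, rich in lymphocytes, is a tissue where it is abundant.

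Promoter sequences are shown for the 4 immunoproteasome members and for Tap1, which encodes one chain of the transporter that carries the peptides to class I molecules, because these are the genes of the set that are known to respond to interferon. The sequences are from RefSeq, build GRCr8, and run from 250 bases before to 50 bases after each start, 5′ to 3′ on the gene's strand. They are Psmb8 (chr20:4656982-4657281, minus strand), Psmb9 (chr20:4668750-4669049, plus), Psmb10 (chr19:50743243-50743542, minus), Psme2 (chr15:33052702-33053001, minus) and Tap1 (chr20:4668494-4668793, minus). Capitals mark matches on either strand to an interferon regulatory factor (IRF) motif (GAAA, any 2 bases, GAAA), to a gamma-activated site (GAS) motif (TTCNNNGAA) and to an NF-kappaB motif (GGG, any 3 bases, TTCC).
Psmb8: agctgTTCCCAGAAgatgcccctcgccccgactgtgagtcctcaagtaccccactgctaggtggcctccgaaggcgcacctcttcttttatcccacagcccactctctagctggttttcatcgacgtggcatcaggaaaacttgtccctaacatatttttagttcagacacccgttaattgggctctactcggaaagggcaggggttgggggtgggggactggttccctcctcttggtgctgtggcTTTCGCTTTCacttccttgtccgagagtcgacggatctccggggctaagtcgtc
Psmb9: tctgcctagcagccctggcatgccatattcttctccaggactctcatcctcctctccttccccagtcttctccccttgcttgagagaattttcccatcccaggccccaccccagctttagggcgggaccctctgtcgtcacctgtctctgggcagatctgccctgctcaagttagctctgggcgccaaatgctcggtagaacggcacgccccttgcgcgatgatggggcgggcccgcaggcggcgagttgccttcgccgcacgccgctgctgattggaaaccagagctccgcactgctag
Psmb10: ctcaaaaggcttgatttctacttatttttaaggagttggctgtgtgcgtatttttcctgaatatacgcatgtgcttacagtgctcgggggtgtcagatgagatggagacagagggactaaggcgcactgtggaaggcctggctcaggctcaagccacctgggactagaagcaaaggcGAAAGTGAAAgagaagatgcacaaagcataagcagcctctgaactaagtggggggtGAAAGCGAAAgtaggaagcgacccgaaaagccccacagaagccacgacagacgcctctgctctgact
Psme2: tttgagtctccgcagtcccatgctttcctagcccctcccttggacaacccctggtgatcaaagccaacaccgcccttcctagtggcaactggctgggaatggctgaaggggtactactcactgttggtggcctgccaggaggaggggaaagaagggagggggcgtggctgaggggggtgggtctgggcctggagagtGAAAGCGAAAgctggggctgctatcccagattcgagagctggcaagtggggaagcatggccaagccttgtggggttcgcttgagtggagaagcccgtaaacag
Tap1: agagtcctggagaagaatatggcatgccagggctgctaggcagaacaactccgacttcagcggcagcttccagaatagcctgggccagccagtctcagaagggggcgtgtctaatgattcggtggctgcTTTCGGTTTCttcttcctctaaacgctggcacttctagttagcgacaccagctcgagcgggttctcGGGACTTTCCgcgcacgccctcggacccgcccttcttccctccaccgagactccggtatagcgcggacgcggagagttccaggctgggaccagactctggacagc

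Psmb8 held 1 IRF match (TTTCGCTTTC, on the opposite strand) that spans the start, from position -4 to 5, and 1 GAS match. Psmb10 held 2 IRF matches, GAAAGTGAAA from -73 to -64 and GAAAGCGAAA from -17 to -8. Psme2 held 1, GAAAGCGAAA, from -53 to -44. The Tap1 promoter held 1 IRF match and 1 NF-kappaB match, GGGACTTTCC. None of the 3 motifs was found in the Psmb9 window, nor in those of Psme1, Psmb5, Psmb6 and Psmb7. Psmb9 and Tap1 lie head to head, with their starts 457 bases apart, so that their windows share bases. The IRF match of Tap1 (-121 to -112) and its NF-kappaB match (-55 to -46) lie between both starts, but outside the Psmb9 window. The IRF motif stood in 3 of 5 immunoproteasome promoters (Psme1 included) and in 4 of 37 standard proteasome promoters, against 3.92% of the 33469 rat promoters of this length. The GAS motif stood in 8.87% of all promoters and the NF-kappaB motif in 5.37%. An antioxidant response motif, TGANNNNGC, stood in 20 of 37 standard promoters and in 40.5% of all promoters. Promoters were found for 43 of the 47 members, and a match is a stretch of letters, not a known binding site.

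Levels are given in CPM (each library's counts brought to one total, with TMM scaling) when a gene is compared between libraries, and in the deposited FPKM, which also divides by gene length, when genes are compared with each other. Libraries held 14211789 to 19014761 counts. TAA+celecoxib 1 and control 1 stood apart from the other 7 libraries on the first principal component (31.3% of the variance), at -60.3 and -63.2, and had the lowest summed macrophage markers (1842 and 2432 CPM, against 3640 to 7398 CPM elsewhere). Summed erythroid markers were highest in TAA+celecoxib 2 (3141 CPM) and TAA 1 (2662 CPM), and hepatocyte transcripts were present in TAA 1 (652 CPM) and control 1 (100.5 CPM). Each list of spleen cell markers was detected in every library, and no marker of these lists that the table holds was at 0. In a whole-tissue sample, fewer cells of a type and less RNA per cell cannot be told apart.

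The immunoproteasome genes were among the abundant proteasome transcripts. Mean FPKM over the 9 libraries was 173 for Psmb10, 129 for Psmb9, 126 for Psme2 and 80.7 for Psmb8. The standard counterparts stood at 38.2 FPKM for Psmb7, 101 for Psmb6 and 84.0 for Psmb5. The other standard core genes reached from 27.0 FPKM for Psma4, an alpha ring subunit, to 258 for Psmb4, a beta ring subunit without an active site. These values depend on the deposited gene length, 3909 bases for Psma4 against 1174 for Psma1, another alpha ring gene. Psma4 and Psma1 had 107 and 116 CPM, but 27.0 and 98.2 FPKM. Without division by length, Psmb10 and Psmb7 (996 and 1696 bases) had 174 and 65.4 CPM. Genes of the 19S particle lay between 28.6 FPKM for Psmc6 and 92.6 for Psmc3, both base ATPases. Assembly chaperones were lower, between 2.80 FPKM for Psmd10, the oncoprotein gankyrin, and 36.0 for Psmg4, a chaperone of the alpha ring.

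Psmb8 (ENSRNOG00000000456, chromosome 20, the beta5i subunit, with chymotrypsin-like activity) had 184, 119 and 174 CPM in TAA+celecoxib spleens, 182, 207 and 56.9 CPM in TAA spleens, and 226, 181 and 188 CPM in control spleens. TAA 3 was lowest by far, and the groups overlapped. Group means were 159 ± 35.2 CPM in TAA+celecoxib, 149 ± 80.5 in TAA and 198 ± 24.1 in control (SD, n = 3 each). The log2 fold change of TAA against control was -0.42 (SE 0.40, adjusted p = 0.821, edgeR), and it was -0.03 without TAA 3. With other single libraries left out it reached -0.73.

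Psmb9 (ENSRNOG00000000459, chromosome 20, the beta1i subunit) had 264, 119 and 163 CPM in TAA+celecoxib spleens, 199.6, 205 and 137 CPM in TAA spleens, and 273, 212 and 209 CPM in control spleens. All 3 TAA libraries lay below all 3 controls, while the TAA+celecoxib libraries ran both above and below the TAA range. Means were 182 ± 74.7 CPM in TAA+celecoxib, 181 ± 38.0 in TAA and 232 ± 36.1 in control (SD, n = 3 each), and the log2 fold change of TAA against control was -0.36 (SE 0.29, adjusted p = 0.798, edgeR). Without TAA 3 this value was -0.19, and without control 1 it was -0.22. With other single libraries left out it reached -0.46.

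Psmb10 (ENSRNOG00000019494, chromosome 19, 37909546 to 37912027 as deposited, the beta2i subunit, with trypsin-like activity) had 214, 118 and 162 CPM in TAA+celecoxib spleens, 172, 190.3 and 139.9 CPM in TAA spleens, and 216, 176 and 176 CPM in control spleens. The 3 groups overlapped, and TAA+celecoxib 2 was lowest. Psme2 (ENSRNOG00000019246, chromosome 15, 34265557 to 34269851 as deposited, the beta chain of PA28) had 219, 122 and 151 CPM in TAA+celecoxib spleens, 174, 176 and 124 CPM in TAA spleens, and 223, 183 and 156 CPM in control spleens. Its groups overlapped as well. In TAA against control, the log2 fold changes were -0.18 (SE 0.22) for Psmb10 and -0.25 (SE 0.24) for Psme2, with adjusted p-values of 0.845 and 0.821 (edgeR).

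**Figure D1:**
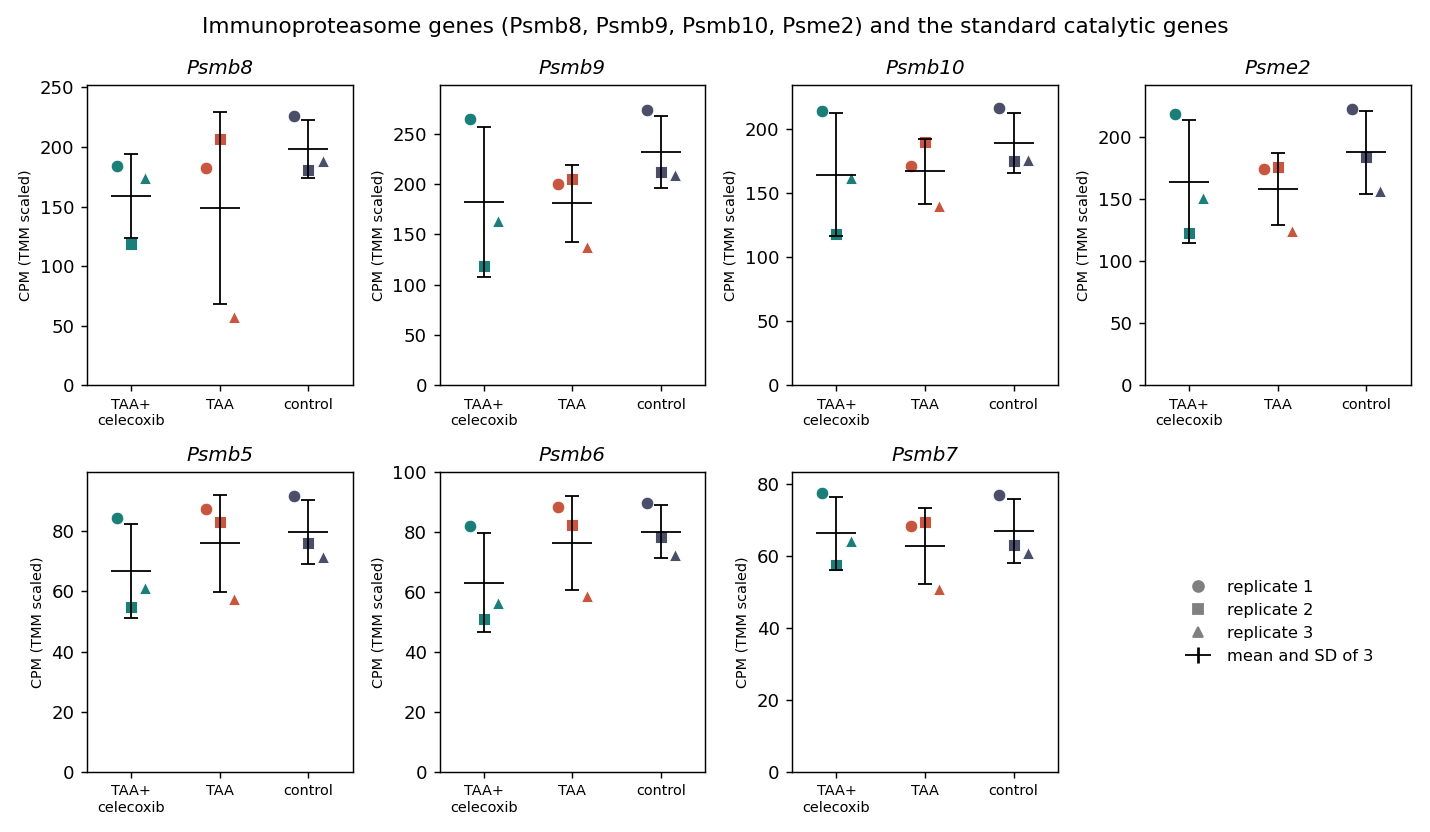
CPM (vertical axes, starting at 0) of the 4 immunoproteasome genes and the 3 standard catalytic genes in each library of the TAA+celecoxib, TAA and control groups, with symbols for the replicate number and black bars for the mean and SD of 3 libraries. Within groups, TAA+celecoxib 1 and control 1 are high, and TAA 3 is low in each panel, at 56.9 CPM for Psmb8.

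The standard catalytic genes followed a like order of libraries. Psmb5, the chymotrypsin-like subunit of the constitutive core, had 84.5, 54.8 and 61.1 CPM in TAA+celecoxib spleens, 87.4, 83.0 and 57.4 CPM in TAA spleens, and 91.7, 76.1 and 71.4 CPM in control spleens. Psmb6, the caspase-like subunit, had 82.0, 51.1 and 56.3 CPM in TAA+celecoxib spleens, 88.3, 82.5 and 58.6 CPM in TAA spleens, and 89.8, 78.3 and 72.3 CPM in control spleens. Psmb7, the trypsin-like subunit, had 77.4, 57.5 and 64.2 CPM in TAA+celecoxib spleens, 68.3, 69.4 and 50.8 CPM in TAA spleens, and 77.1, 63.1 and 60.8 CPM in control spleens. For each of the 3 genes the groups overlapped in every comparison, and TAA 3 was the lowest TAA library. The log2 fold changes lay between -0.09 and -0.07 for TAA against control, between -0.28 and 0.08 for TAA+celecoxib against TAA, and between -0.34 and -0.01 for TAA+celecoxib against control.

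TAA against control asks how the spleen of TAA-treated rats differed from that of controls. No proteasome gene passed the threshold of an adjusted p of 0.05: edgeR called 0 of 47 members, against 0.0% of all 15954 genes tested. At an unadjusted p under 0.05 stood 1 member, higher in TAA, against 2.85% of all genes higher and 3.15% lower (6.0% in all). DESeq2 called 50 genes and 0 members. The 4 immunoproteasome genes had negative log2 fold changes, with a median of -0.30, while the median was 0.03 for the 41 standard genes and 0.00 for all genes tested. The immunoproteasome median was -0.08 without TAA 3, -0.16 without control 1, and -0.17 without both control 1 and TAA+celecoxib 1. Over all single libraries left out it ran from -0.40 to -0.08.

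Psmd1, a scaffold subunit of the 19S base, was the member with that unadjusted p. It had 119.9, 159 and 126 CPM in TAA+celecoxib spleens, 146, 149 and 149 CPM in TAA spleens, and 116, 124 and 123 CPM in control spleens. The TAA libraries all lay above the controls, by more than the spread within either group. The log2 fold change was 0.29 (SE 0.12, unadjusted p = 0.040, adjusted p = 0.788, edgeR), and leaving out single libraries gave 0.26 to 0.31. Groups that did not overlap were found for 1 member higher in TAA (Psmd1), against 6.94% of all genes, and for 1 lower (Psmb9), against 7.89% (14.8% in all).

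The next smallest p-values belonged to Psme3ip1 and Psmd2. Psme3ip1, a nuclear protein that binds the regulator encoded by Psme3, had 50.7, 46.3 and 47.2 CPM in TAA spleens and 67.1, 54.0 and 48.6 CPM in control spleens, which overlapped (log2 fold change -0.24, SE 0.15). Psmd2, a ubiquitin-binding scaffold of the base, had 212, 239 and 195 CPM in TAA spleens and 204, 184 and 194 CPM in control spleens, which overlapped as well (log2 fold change 0.15, SE 0.11). By particle, 16 of 17 genes of the 19S particle and 7 of 14 of the standard 20S core had a log2 fold change above 0. Of all genes tested, 8015 of 15954 did. The medians of the 19S and 20S genes were 0.05 and -0.01, and 0 of these passed the threshold. The 19S genes shifted together within libraries, with 1 of 17 above its own mean in control 2 and 0 in control 3. Their 16 values above 0 are therefore not separate observations.

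TAA+celecoxib against TAA addresses the effect of celecoxib on top of TAA. Here too edgeR called 0 of 47 members, against 0.0% of all genes, and DESeq2 called 22 genes and 0 members. No member had an unadjusted p under 0.05, against 2.63% of all genes higher and 2.46% lower in TAA+celecoxib (5.09% in all). No member's groups were apart, against 5.87% of all genes higher and 5.03% lower (10.9% in all). Median log2 fold changes were 0.03 for the 4 immunoproteasome genes, -0.01 for the 41 standard genes and 0.01 for all genes tested. The immunoproteasome median depended on single libraries: it was -0.23 without TAA+celecoxib 1, 0.23 without TAA+celecoxib 2 and -0.14 without TAA 3.

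Among members with the smallest p-values in this comparison, Psme4, the activator PA200, had 179, 231 and 164 CPM in TAA+celecoxib spleens and 153, 103 and 184 CPM in TAA spleens. Its groups overlapped through TAA 3 (log2 fold change 0.38, SE 0.21, adjusted p = 0.890, edgeR). Psmd4, a ubiquitin receptor of the base, had 103, 81.1 and 93.6 CPM in TAA+celecoxib spleens and 118, 111 and 95.8 CPM in TAA spleens, also overlapping (log2 fold change -0.23, SE 0.14). Psma3l, which RefSeq lists as a synonym of the alpha ring gene Psma3, had 178, 199.6 and 159.8 CPM in TAA+celecoxib spleens and 163, 158 and 158 CPM in TAA spleens. TAA+celecoxib 1 and 2 lay above the TAA range and TAA+celecoxib 3 inside it (log2 fold change 0.16, SE 0.11).

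In TAA+celecoxib against control, edgeR again called 0 of 47 members, against 0.0% of all genes. DESeq2 called 24 genes and 0 members. At an unadjusted p under 0.05 stood 2 members, both regulators of the core and both higher in TAA+celecoxib, against 2.96% of all genes higher and 2.07% lower (5.03% in all). Groups were apart for 2 members higher (Psme4 and Psmd6), against 5.27% of all genes, and for 0 lower, against 4.42% (9.68% in all). The immunoproteasome genes were below control in all 4 cases, with a median log2 fold change of -0.26, against 0.03 for the 41 standard genes and 0.00 for all genes. That median was -0.07 without TAA+celecoxib 2 and -0.15 without control 1, and it ran from -0.45 to -0.07 over all single libraries left out. Libraries of these groups with the same number deviated together in these data, though the labels do not say that the numbers pair them. They were also set side by side by number, a count added after the values were seen. These pairs were chosen from the same data, so the counts over them are a description and not a test. The 4 genes moved together between libraries, so their counts are not independent. Psmb8, Psmb9, Psmb10 and Psme2 were each lower in TAA+celecoxib than in control in all 3 pairs. Of all genes tested, 18.5% were lower in all 3 pairs and 18.8% were higher. Of the 41 standard genes, 9 were lower in all 3 pairs, Psmb5 and Psmb6 among them, and 13 were higher. With these pairs as a block in the fit, edgeR still called 0 members.

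Psme4 had 179, 231 and 164 CPM in TAA+celecoxib spleens and 119, 142 and 141 CPM in control spleens. All 3 TAA+celecoxib libraries lay above the controls, and TAA+celecoxib 2 was highest. The log2 fold change was 0.51 (SE 0.22, unadjusted p = 0.041, adjusted p = 0.911, edgeR) and 0.36 without TAA+celecoxib 2. With other single libraries left out it reached 0.61. Psmf1, the inhibitor PI31, had 90.8, 98.0 and 63.9 CPM in TAA+celecoxib spleens and 67.0, 52.8 and 59.4 CPM in control spleens. These overlapped through TAA+celecoxib 3, and the log2 fold change was 0.50 (SE 0.21, unadjusted p = 0.043, adjusted p = 0.911, edgeR). Psmf1 was also high in TAA 1, at 88.7 CPM, against 56.0 and 66.5 CPM in the other TAA libraries. Its levels moved with the summed erythroid markers (4 of 5 listed genes in the table, none at 0), which were 902, 3141 and 407 CPM in TAA+celecoxib spleens, 2662, 309 and 1175 CPM in TAA spleens, and 506, 232 and 94.4 CPM in control spleens. Their part in the Psmf1 and Psme4 values was not tested.

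Psmd6, a lid subunit, was among the steadiest members, with 80.5, 80.9 and 78.2 CPM in TAA+celecoxib spleens and 77.8, 76.2 and 69.8 CPM in control spleens. The groups were apart by a small margin, with a log2 fold change of 0.10 (SE 0.09, adjusted p = 0.949, edgeR). Psmd14, the lid enzyme that removes ubiquitin from substrates, had 65.1, 69.4 and 53.5 CPM in TAA+celecoxib spleens and 54.2, 53.4 and 57.3 CPM in control spleens. Here the groups overlapped (log2 fold change 0.19, SE 0.12).

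**Figure D2:**
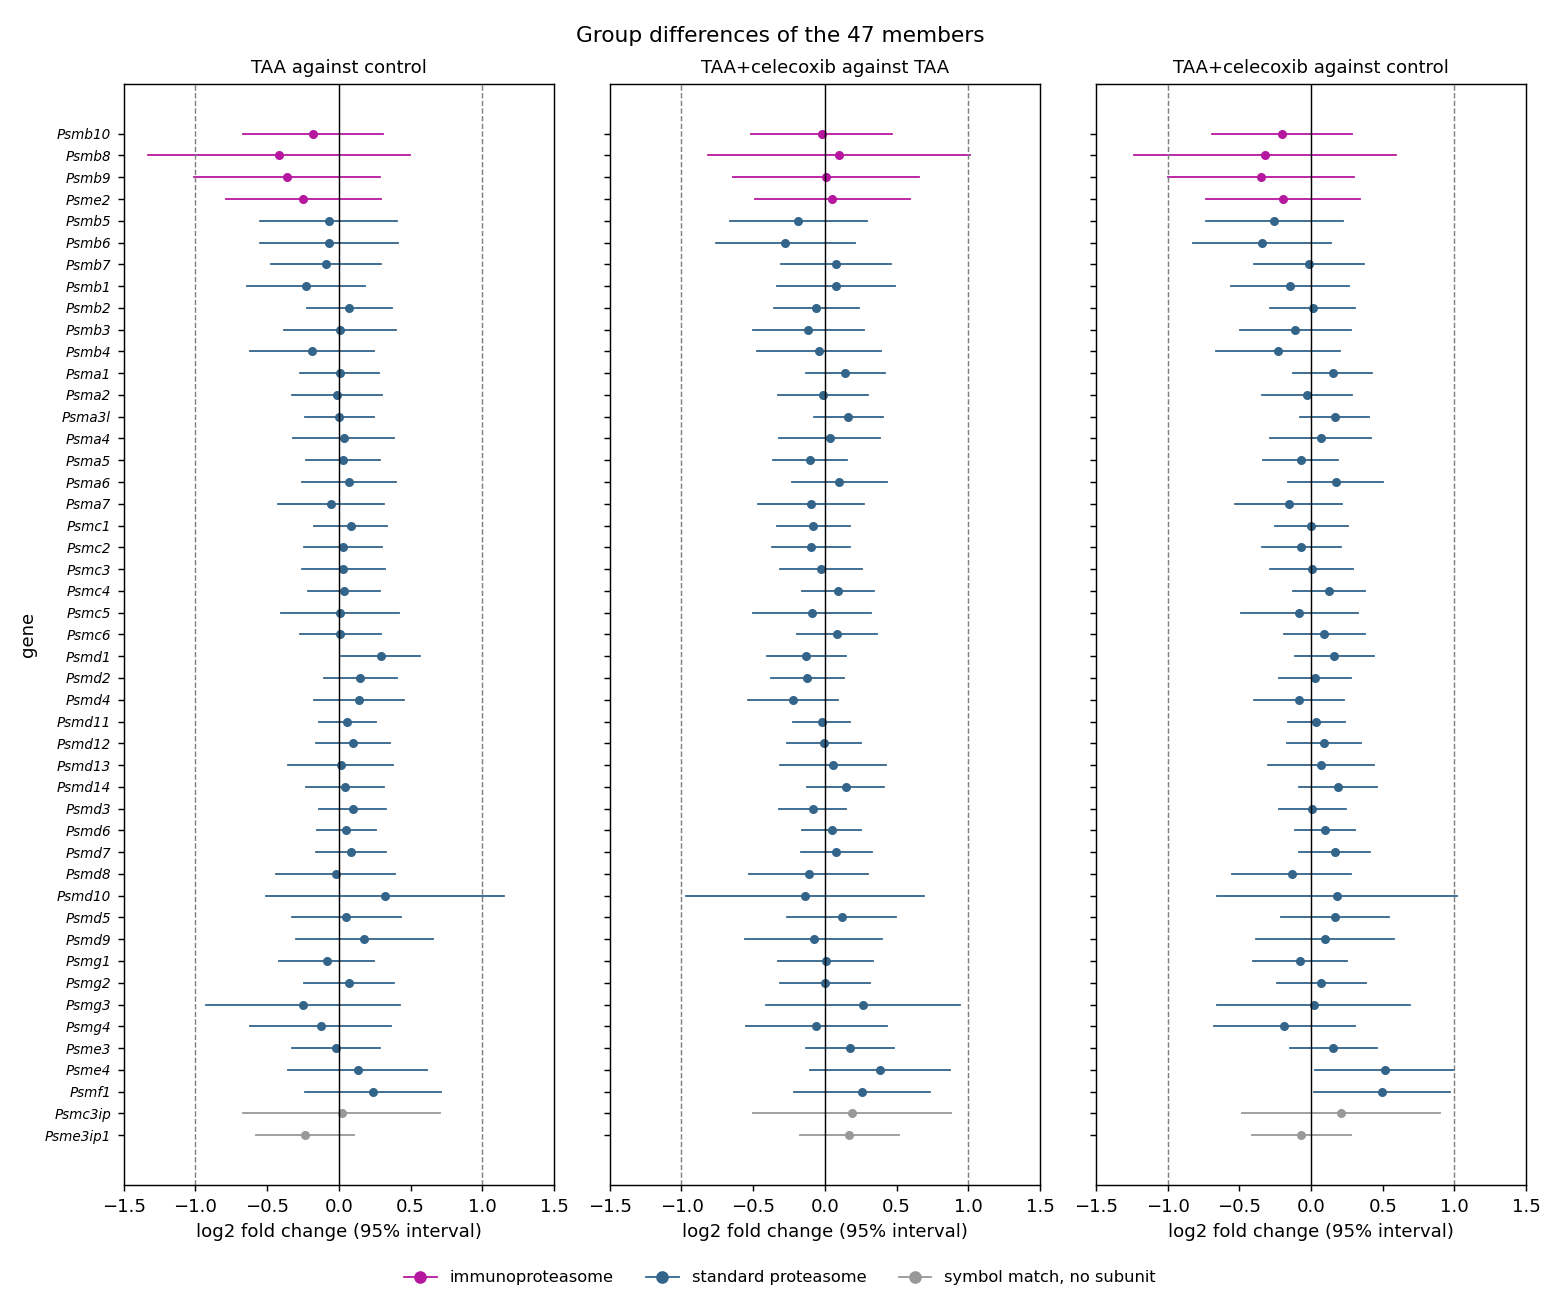
Log2 fold change of each of the 47 members in the 3 comparisons, with bars for the 95% interval of edgeR and dashed lines at 2-fold up and down. The points lie close to 0 and the widest bars belong to Psmb8 and Psmd10, the bars of 44, 46 and 44 members staying inside the dashed lines.

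The remaining members stayed within narrow ranges when read by role. In the alpha ring (Psma1, Psma2, Psma3l, Psma4, Psma5, Psma6 and Psma7), which gates the core, log2 fold changes lay between -0.06 and 0.07 for TAA against control and between -0.10 and 0.16 for TAA+celecoxib against TAA. The beta ring subunits without an active site (Psmb1, Psmb2, Psmb3 and Psmb4) lay between -0.23 and 0.07, and between -0.12 and 0.08. The 6 ATPases of the base (Psmc1 to Psmc6), which unfold substrates, lay between 0.01 and 0.08, and between -0.10 and 0.09.

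The other base subunits (Psmd1, Psmd2 and Psmd4) lay between 0.14 and 0.29 for TAA against control and between -0.23 and -0.12 for TAA+celecoxib against TAA. The 8 lid genes (Psmd3, Psmd6, Psmd7, Psmd8, Psmd11, Psmd12, Psmd13 and Psmd14) lay between -0.02 and 0.10, and between -0.11 and 0.14. Assembly chaperones (Psmd5, Psmd9 and Psmd10 of the base, and Psmg1, Psmg2, Psmg3 and Psmg4 of the core) spread more widely, between -0.25 and 0.32, and between -0.14 and 0.27. For the regulators Psme3, Psme4 and Psmf1 the ranges were -0.02 to 0.24 and 0.18 to 0.38. Psmc3ip, a recombination factor of meiosis that is no subunit, was at 8.27 ± 2.68 CPM in TAA+celecoxib, 7.25 ± 1.40 in TAA and 7.15 ± 1.60 in control (SD, n = 3 each).

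The intervals, taken gene by gene without adjustment, show how large a change these libraries could have missed. The 95% interval of the fold change lay within 2-fold for 44 of 47 members in TAA against control, for 46 in TAA+celecoxib against TAA and for 44 in TAA+celecoxib against control. For all 15954 genes tested, 9824, 9999 and 10184 did so. For the 4 immunoproteasome genes the counts were 2, 3 and 3. The Psmb8 interval for TAA against control ran from -1.33 to 0.50 on the log2 scale, so that both a fall of 2-fold and a rise lay inside the error. The Psmd10 interval ran from -0.51 to 1.16, with 215 counts in all 9 libraries.

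The subunit genes differed from library to library less than most genes did. Over the 9 libraries the SD of log2 CPM had a median of 0.17 for the 47 members, against 0.31 for the 15707 tested genes with counts in every library. The lowest was that of Psmd11, a lid subunit, at 0.045, the eighth lowest of the 15707. Psmd11 had 114, 117 and 111 CPM in TAA+celecoxib spleens, 120.0, 112 and 116 CPM in TAA spleens, and 108, 113 and 113 CPM in control spleens. The median SD was 0.12 for the 17 genes of the 19S particle, 0.18 for the 14 of the standard 20S core and 0.36 for the 4 immunoproteasome genes. Highest were Psmb8 at 0.61, Psmb9 at 0.40 and Psmd10 at 0.37. The members are abundant, and they were not compared with genes of a matched level, so this is a description of the table and not a test.

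**Figure D3:**
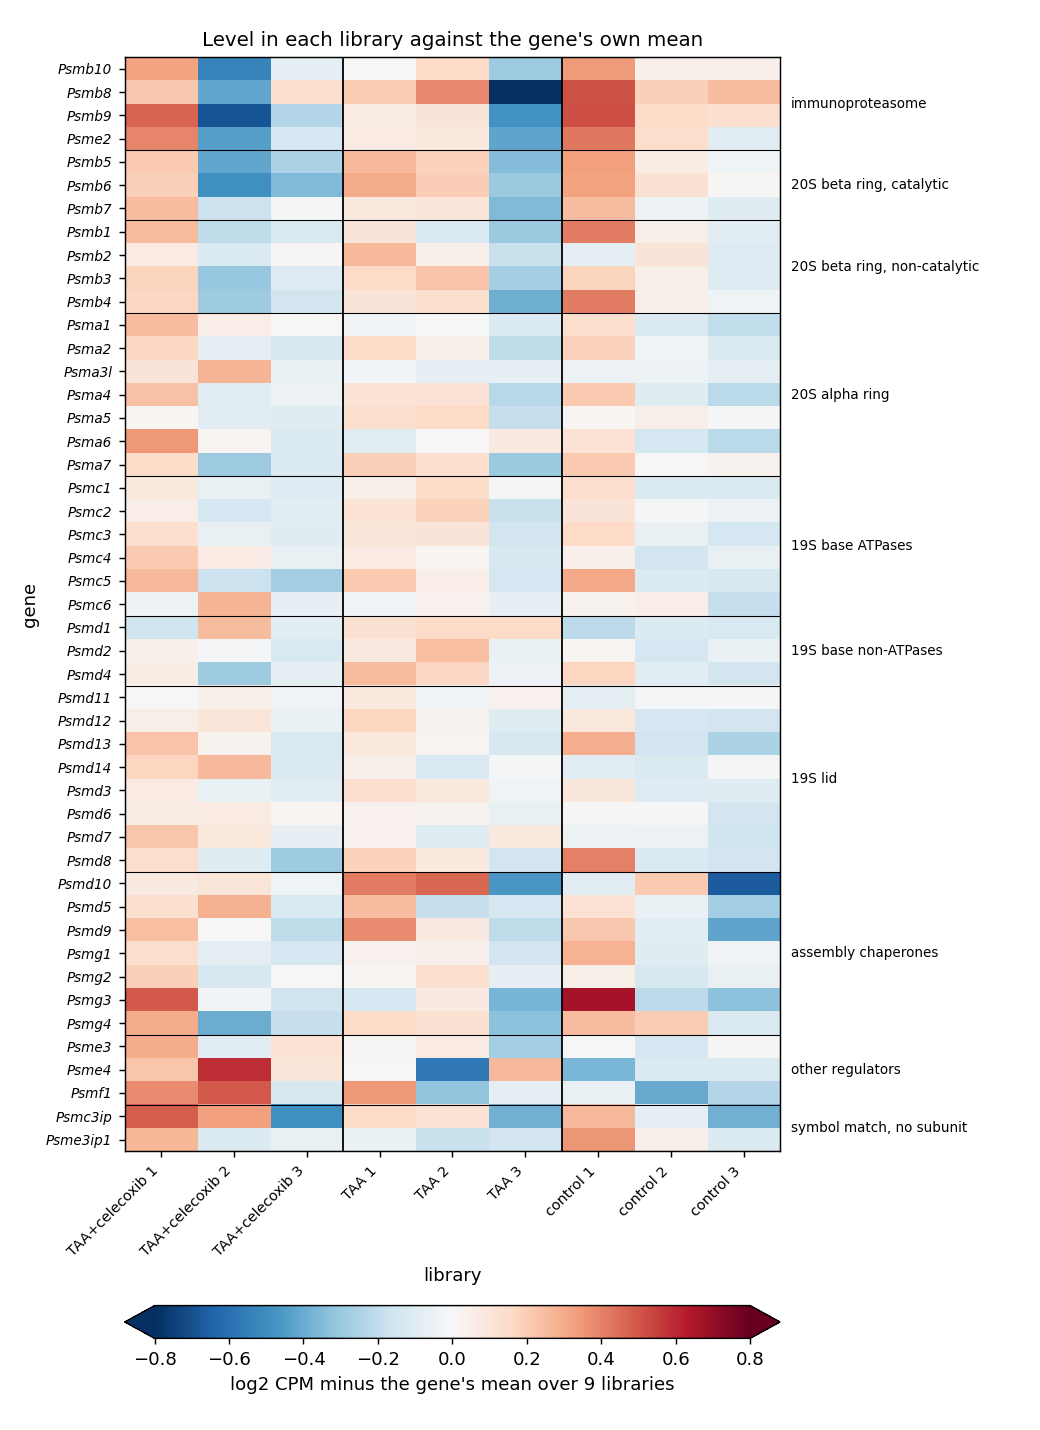
Log2 CPM of each member (rows, grouped by role) in each library (columns) minus the gene's own mean over the 9 libraries. Red is above and blue below that mean, values past the ends of the scale take the end colour, and the columns of TAA+celecoxib 1 and control 1 are mostly red while TAA 3 is mostly blue.

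The deviations of the subunit genes were shared within libraries. Each gene was set against its own mean over the 9 libraries on the log2 scale. The median deviation of the 4 immunoproteasome genes reached 0.36, -0.49 and -0.11 in TAA+celecoxib spleens, 0.06, 0.13 and -0.45 in TAA spleens, and 0.47, 0.14 and 0.09 in control spleens. That of the 14 standard core genes was 0.18, -0.14 and -0.11 in TAA+celecoxib, 0.13, 0.11 and -0.25 in TAA, and 0.19, 0.02 and -0.09 in control. Both sets were highest in TAA+celecoxib 1 and control 1 and lowest in TAA+celecoxib 2 and TAA 3.

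Over all genes tested, the shortest genes had the same libraries at the ends of this order. The standard core genes are short, with a median length of 965.5 bases, against 2201 for all genes tested. The 4 immunoproteasome genes had a median of 1429 bases (996 to 2066). They moved between -0.49 in TAA+celecoxib 2 and 0.47 in control 1, and Psmb8, at 2066 bases, varied most. The 3849 shortest genes, of 1350 bases or fewer, had median deviations of 0.13, -0.12 and -0.07 in TAA+celecoxib, 0.08, 0.05 and -0.13 in TAA, and 0.18, 0.05 and -0.03 in control. The 3964 longest had the opposite sign in each of the 9 libraries, at 0.09 in TAA 3 and -0.10 in control 1. The 19S genes, with a median length of 1584 bases, moved less, between -0.13 in control 3 and 0.09 in control 1. The part of gene length in the proteasome values was not tested.

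**Figure D4:**
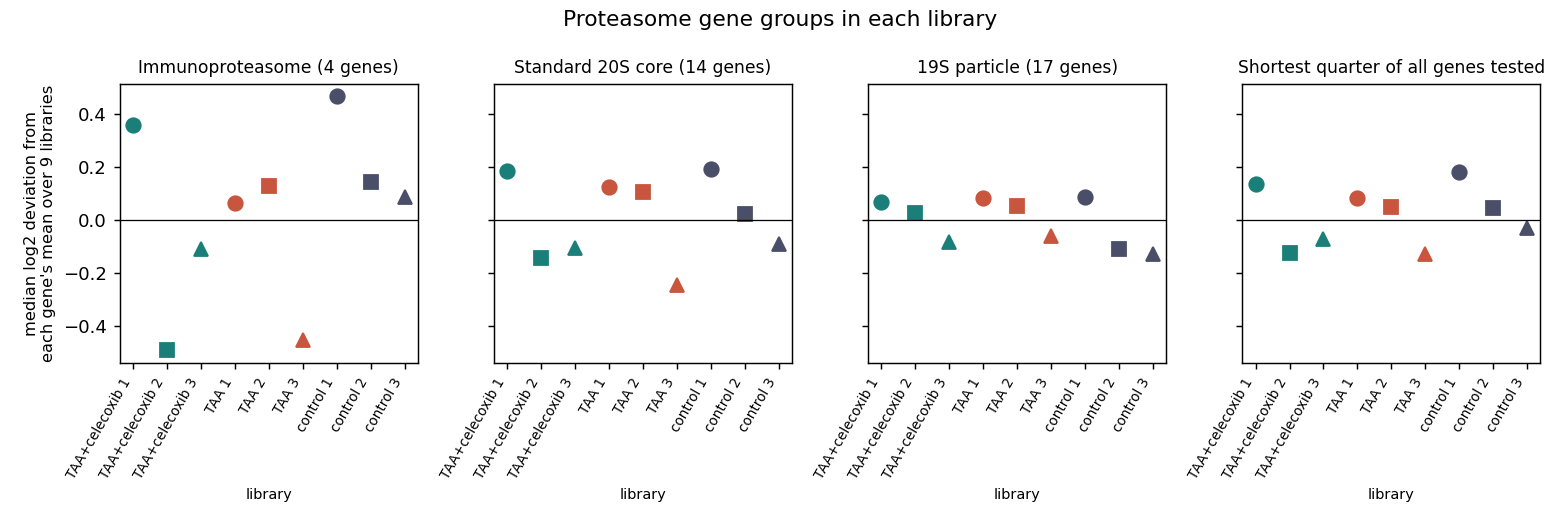
Median log2 deviation from each gene's own mean over 9 libraries, per library, for the 4 immunoproteasome genes, the 14 standard 20S core genes, the 17 genes of the 19S particle and the shortest genes of the whole table. The first 2 panels and the last share their ends, with TAA+celecoxib 1 and control 1 highest and TAA+celecoxib 2 and TAA 3 lowest, and the immunoproteasome panel has the widest range, from -0.49 to 0.47.

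Ratios within a library put each immune subunit against the standard subunit it replaces, so that a shift shared by both cancels. Psmb9 over Psmb6, in FPKM, was 1.52, 1.09 and 1.36 in TAA+celecoxib spleens, 1.07, 1.17 and 1.10 in TAA spleens, and 1.44, 1.28 and 1.37 in control spleens. The TAA libraries all lay below the controls, and TAA+celecoxib 2 lay inside the TAA range. On the log2 scale TAA minus control was -0.29 (SE 0.06), with an exact 2-sided permutation p = 0.1, the smallest that 3 against 3 libraries allow (adjusted p = 0.3 over 9 ratio comparisons). TAA+celecoxib minus TAA was 0.24 (SE 0.15, exact permutation p = 0.3).

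Psmb10 over Psmb7 was 4.71, 3.50 and 4.29 in TAA+celecoxib spleens, 4.27, 4.67 and 4.69 in TAA spleens, and 4.78, 4.74 and 4.94 in control spleens. The controls lay above every library of both other groups, by little in the case of TAA. TAA+celecoxib minus control was -0.22 (SE 0.13) and TAA minus control -0.09 (SE 0.05) on the log2 scale, each with an exact permutation p = 0.1. Psmb8 over Psmb5 was 0.921, 0.916 and 1.20 in TAA+celecoxib spleens, 0.881, 1.05 and 0.419 in TAA spleens, and 1.04, 1.003 and 1.11 in control spleens. These groups overlapped, and TAA minus control was -0.53 (SE 0.41, exact permutation p = 0.3), or -0.13 without TAA 3. With other single libraries left out this difference reached -0.79. No ratio test could reach 0.05 in this design.

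**Figure D5:**
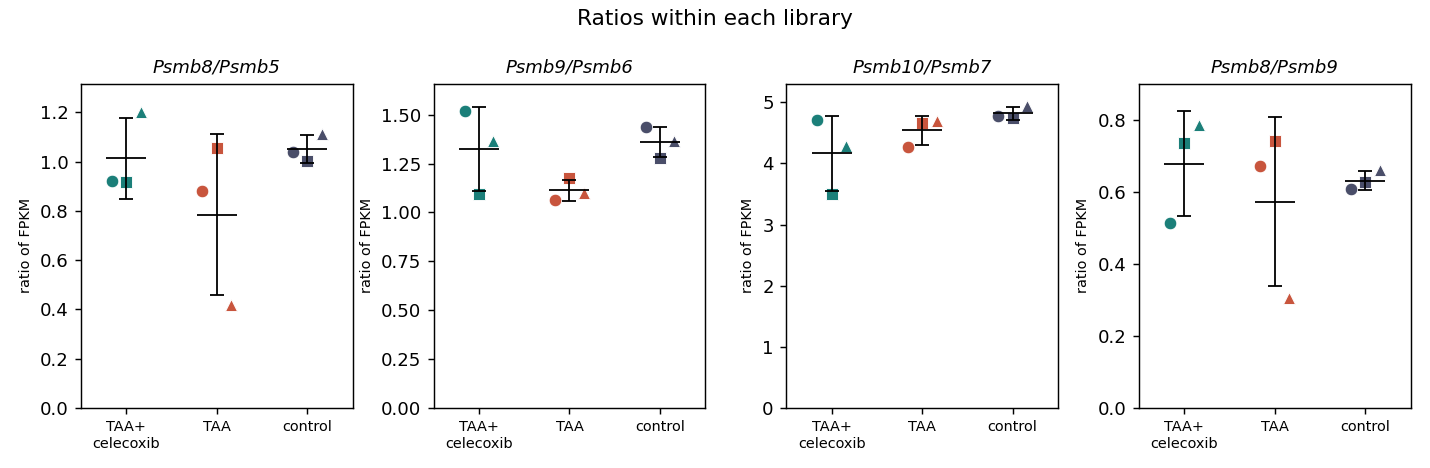
Ratio of FPKM (vertical axes, starting at 0) between each immune catalytic gene and the standard gene it replaces, and between Psmb8 and Psmb9, in each library by group, with the mean and SD of 3. The TAA libraries lie below the controls for Psmb9/Psmb6, and TAA 3 lies apart for Psmb8/Psmb5 at 0.419 and Psmb8/Psmb9 at 0.306.

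In TAA 3, Psmb8 was low beyond the other immune catalytic genes. Its Psmb8 over Psmb9 ratio in FPKM was 0.306, while the other 8 libraries had 0.513 to 0.786. In the coordinates of the deposited table Psmb8 (3990613 to 3993769), Tap1 (3979035 to 3989669) and Psmb9 (3973420 to 3978845) are neighbours on chromosome 20, inside the rat MHC. Tap1 was at 152 CPM in TAA 3 and at 163 to 299 CPM elsewhere. Tap2 (3995544 to 4009587), on the other side of Psmb8, was highest in TAA 3, at 16.4 CPM against 2.03 to 13.5 CPM elsewhere.

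Other genes of this region, chosen after their values were seen, also differed sharply between single libraries. RT1-A2, a class I gene, had 469.7, 209 and 287 CPM in TAA+celecoxib spleens, 356, 310.3 and 35.5 CPM in TAA spleens, and 678, 401 and 328 CPM in control spleens. RT1-N2 was at 0 counts in TAA 3 and at 14.4 to 53.0 CPM elsewhere. RT1-DMa went the other way, at 13.7 CPM in TAA 3 and 0.284 to 3.84 CPM elsewhere. RT1-Ba, a class II gene, was at 13.6 to 19.1 CPM in TAA+celecoxib 1, control 2 and control 3, and reached 1301 CPM in control 1. So single libraries of every group stood apart in this region, and not the same ones for each gene. RT1 genes have near-identical copies among which reads can be split, so their levels are uncertain. Rat MHC genes also differ in sequence between haplotypes, and the haplotype of the animals is not given in the sources used here. For Psmb8 and the RT1 genes, less RNA and fewer reads assigned to the reference sequence therefore cannot be told apart, and the cause of the low Psmb8 and RT1-A2 values in TAA 3 was not tested.

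Psme1, the alpha chain of PA28, was no member because it held 5 counts in all (1 and 4 in TAA 1 and TAA 2), while Psme2, its partner, held 24939. In the deposited table Psme1 lies on the plus strand of chromosome 15 (34256071 to 34258947) and shares 2574 bases with Emc9 on the minus strand, which held 50 to 98 counts per library. The strand setting of the counting is not given in the sources used here, and the cause of the low Psme1 count was not tested. Psma8 (2 counts), an alpha subunit of germ cells, and Psmb11 (0 counts), the thymus-specific beta subunit, were the other symbols below the minimum.

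Partners of the proteasome were described from a list of 20 genes: subunits and chaperones outside the symbol rule, ubiquitin handling and the regulation of proteasome genes. None passed the adjusted threshold in any comparison. Median log2 fold changes were 0.08 for TAA against control, 0.02 for TAA+celecoxib against TAA and 0.08 for TAA+celecoxib against control. Ngly1, which processes the transcription factor NRF1, had 91.8, 77.6 and 78.997 CPM in TAA+celecoxib spleens, 70.4, 68.0 and 70.7 CPM in TAA spleens, and 83.2, 76.8 and 78.2 CPM in control spleens. Its TAA libraries lay below both other groups (TAA+celecoxib against TAA, log2 fold change 0.25, SE 0.10, unadjusted p = 0.036, edgeR).

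Nfe2l1, which encodes NRF1, the activator of proteasome genes when degradation is impaired, had 95.1, 151 and 160.1 CPM in TAA+celecoxib spleens, 151, 159 and 202 CPM in TAA spleens, and 92.8, 163 and 164 CPM in control spleens. It was low in TAA+celecoxib 1 and control 1, the libraries where the core genes were high, and the groups overlapped. Pomp, the chaperone of core maturation, ranged between 13.6 and 74.2 CPM within the TAA+celecoxib group alone, so its groups overlapped too (TAA+celecoxib against control, log2 fold change 0.61, SE 0.62). Akirin2, which brings proteasomes into the nucleus, had 76.9, 78.3 and 77.1 CPM in TAA+celecoxib spleens and 70.2, 64.2 and 69.2 CPM in TAA spleens, apart from each other (log2 fold change 0.19, SE 0.10, adjusted p = 0.890, edgeR).

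Against control, the partners with the smallest p-values were Ecpas, a proteasome adaptor, and Usp14, a deubiquitinating enzyme bound to the 19S. Ecpas had 167, 176 and 154 CPM in TAA+celecoxib spleens and 140.2, 128 and 142 CPM in control spleens (log2 fold change 0.28, SE 0.12, unadjusted p = 0.041, edgeR). Usp14 had 77.7, 74.3 and 77.2 CPM in TAA+celecoxib spleens and 65.7, 61.9 and 69.9 CPM in control spleens (log2 fold change 0.21, SE 0.09, unadjusted p = 0.047, edgeR). Both were higher in each TAA+celecoxib library than in any control, and both had an adjusted p of 0.911 (edgeR).

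The interferon gamma pathway, which induces the immunoproteasome, was described from 7 genes, from ligand to transcription factors. Ifng, the ligand, was close to the limit of detection, with 0.570, 0.491 and 0.902 CPM in TAA+celecoxib spleens, 0.639, 0.342 and 0.0522 CPM in TAA spleens, and 0.863, 0.612 and 0.797 CPM in control spleens. The TAA 3 value is that of 1 count.

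Irf1, the factor that binds IRF motifs in immunoproteasome promoters, had 177, 157 and 176 CPM in TAA+celecoxib spleens, 142, 154 and 135 CPM in TAA spleens, and 188, 153 and 172 CPM in control spleens. Its log2 fold changes were -0.25 for TAA against control, where the groups overlapped, and 0.24 for TAA+celecoxib against TAA, where they did not (unadjusted p = 0.055 and 0.065, edgeR). Against control, TAA+celecoxib differed by -0.01. None of the 7 genes passed the adjusted threshold in any comparison.

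The receptor chain Ifngr2 had 60.3, 59.7 and 61.8 CPM in TAA+celecoxib spleens and 65.4, 78.6 and 69.0 CPM in control spleens, with no overlap (log2 fold change -0.23, SE 0.11, adjusted p = 0.911, edgeR). The kinase gene Jak2 had 131, 156 and 135 CPM in TAA+celecoxib spleens and 119, 128 and 129 CPM in control spleens, also without overlap (log2 fold change 0.17, SE 0.12).

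Class I peptide loading was described from 10 genes. Nlrc5, the transactivator of class I genes, had 101, 69.6 and 81.9 CPM in TAA+celecoxib spleens, 55.1, 64.2 and 57.8 CPM in TAA spleens, and 94.0, 79.9 and 78.6 CPM in control spleens. All TAA libraries lay below all libraries of both other groups. The log2 fold change was -0.51 (SE 0.15) for TAA against control and 0.51 (SE 0.15) for TAA+celecoxib against TAA, each with an unadjusted p = 0.0083 (edgeR). Adjusted over all genes, these were 0.788 and 0.890 (edgeR). TAA+celecoxib against control was 0.00. The comparisons that involve TAA share the 3 TAA libraries, so a deviation of those libraries enters both with opposite sign.

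Tap1 had 267, 166 and 212 CPM in TAA+celecoxib spleens, 199, 163 and 152 CPM in TAA spleens, and 299, 191 and 189 CPM in control spleens. Its groups overlapped, at a log2 fold change of -0.40 (SE 0.23) for TAA against control and 0.33 (SE 0.23) for TAA+celecoxib against TAA. Without control 1 the value against control was -0.15, and with other single libraries left out it reached -0.52. Calr, the chaperone calreticulin, had 805, 744 and 776 CPM in TAA+celecoxib spleens and 923, 926 and 876 CPM in TAA spleens, apart from each other (log2 fold change -0.23, SE 0.13, adjusted p = 0.890, edgeR). Canx, the chaperone calnexin, overlapped in TAA+celecoxib against control, at 692 ± 76.0 and 638 ± 72.2 CPM (SD, n = 3 each).

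Summed T cell markers (5 of 5 listed genes in the table, none at 0) moved with Nlrc5 across the groups, at 443, 244 and 339.6 CPM in TAA+celecoxib spleens, 209, 222 and 159 CPM in TAA spleens, and 428, 332 and 300.4 CPM in control spleens. Summed macrophage markers (6 of 6 in the table, none at 0) were at 1842, 3803 and 3640.0 CPM in TAA+celecoxib spleens, 4785, 4679 and 7398 CPM in TAA spleens, and 2432, 4492 and 4058 CPM in control spleens. Markers of neutrophils and their precursors (6 of 6, none at 0) summed to 309, 699 and 328 CPM in TAA+celecoxib spleens, 514, 418 and 2055 CPM in TAA spleens, and 81.0, 312 and 253 CPM in control spleens. Both sums were above control in every TAA library, where the T cell sum was below it. Summed B cell markers (5 of 5, none at 0) were at 1934, 996.5 and 1581 CPM in TAA+celecoxib spleens. They were at 1286, 1358 and 1041 CPM in TAA spleens, and 1565, 1243 and 1282 CPM in control spleens. The B cell sum was lowest in TAA+celecoxib 2 and TAA 3, as the immunoproteasome genes were, and highest in TAA+celecoxib 1 and TAA+celecoxib 3. The part of these marker lists in the Nlrc5 and immunoproteasome values was not tested.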

How the data were processed

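RNA of 9 spleen libraries, 3 per group, was sequenced. The authors deposited gene-level read counts, not normalized, and FPKM, which in the deposited values equals the count divided by gene length and by a library constant (0.948 to 1.05 times the value expected from the count total). The submitters' processing notes name HISAT2 2.0.5 and mRatBN7.2. The deposited coordinates reach 282724300 on chromosome 1 and their build is unresolved, so they are printed as deposited. How reads were counted, with which annotation and whether by strand, is not given in the sources used here, so antisense, overlapping or near-identical genes may share reads.

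Group comparisons used edgeR 4.0.16 in R 4.3.3: quasi-likelihood test, all 9 libraries, group as the only term, TMM scaling, filterByExpr with a minimum count of 10 (total 15), Benjamini-Hochberg adjustment over 15954 genes, threshold 0.05. The common biological coefficient of variation was 0.311. Intervals are at 95%, from the t distribution of SciPy 1.17.1. Pairs of libraries within groups differed by 17.5 to 122 chi-square units per degree of freedom, so no library is a repeat of another. Ratios used log2 FPKM and an exact 2-sided permutation test over every split of the libraries of the 2 groups. Alternatives were DESeq2 1.42.0, limma-voom 3.58.1, other scalings, no filter, fewer libraries and a replicate block. The fit was run on simulated counts with the common coefficient of variation for every gene. For TAA against control, 11.0% of 2-fold changes and 92.0% of 4-fold changes then passed the adjusted threshold. In the real data of that comparison the median SE was 0.14 for the 41 standard genes and 0.26 for the 4 immunoproteasome genes. It was 0.25 for all genes tested, so the simulated shares do not describe the steadier standard genes.

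Replicate numbers come from the sample titles. Deviations of same-numbered libraries from their group means correlated at 0.47, 0.18 and 0.34 between TAA+celecoxib and control. All were over 0.1, and on this basis these libraries were set side by side by number. The deviations of a gene cancel out within a group, so these correlations depend on each other. They come from the same expression values as the counts over pairs, so they cannot show that the libraries were paired. In the comparisons that involve TAA, not all of these correlations were over 0.1.

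The members and gene lists were chosen with earlier results of these data known. Genes named were the immunoproteasome and standard catalytic genes and the 3 other members with the smallest p in each comparison. To these were added the 2 such genes of each further list, and Tap1, Nlrc5, Irf1, Ifng, Pomp and Nfe2l1. Some are printed only for the libraries of the 2 groups compared, Canx only as group means and Pomp only as a range. Some genes that this rule names are not reported here. Promoters are from RefSeq (GRCr8), and protein sequences were not used here.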

Additional observations from a re-analysis of the deposited data

How the results depend on the processing

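No proteasome member passed the threshold under any alternative run: other scalings, no filter, the 2 groups only, DESeq2, limma-voom, a replicate block, or fewer libraries. Over all genes, DESeq2 called 50 in TAA against control, 22 in TAA+celecoxib against TAA and 24 in TAA+celecoxib against control, where edgeR called 0 in each. At an unadjusted p under 0.05 edgeR had 957, 812 and 803. Fitting the 2 groups only gave 1 gene in TAA+celecoxib against control. Leaving out single libraries gave 0 to 1, 0 to 3 and 0 to 2 genes. With the replicate block edgeR called 0 genes in each comparison, so blocking by replicate number changed no call. On the log2 scale, leaving out single libraries moved the TAA+celecoxib minus control ratio of Psmb8 to Psmb5 between -0.20 and 0.0011, and that of Psmb9 to Psmb6 between -0.15 and 0.084. Both turned positive without TAA+celecoxib 2. Of 897 recomputed values, 888 kept their direction and side of the threshold or stayed within the spread between libraries. Differences inside the printed intervals were not detectable with 3 libraries per group, and Psmd10, with 215 counts in all, is limited by depth as well.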
